A study of Mus musculus and Rattus norvegicus with 32 samples.

Results

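The calcium/calmodulin-dependent kinases read here are 10 genes, Camkk1, Camkk2, Camk1, Camk1d, Camk2a, Camk2b, Camk2d, Camk2g, Camk4 and Pnck, chosen by gene symbol. They take 10 of the 55487 rows of the mouse tables and 10 of the 32883 rows of the rat table. The list was selected on earlier results of these data, in which Camkk2 was lower in knockout hearts of 1-month-old mice and Pnck was lower in knockout hearts after pressure overload. Those 2 values are therefore given as a description with no test, and the question taken up is whether either change recurs in the other tables. Of the 10 genes, 9 passed the filter on low counts in each mouse comparison and 8 in the rat comparison. Camk4 was below it in every table, and Pnck was below it in the rat.

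Calcium that enters the cytosol of a heart muscle cell binds calmodulin, and calcium-loaded calmodulin switches these kinases on. CAMKK1 and CAMKK2 stand at the head of the cascade, since they phosphorylate and activate CaMKI and CaMKIV, and CAMKK2 also phosphorylates the energy sensor AMPK. CaMKII needs no upstream kinase, and it also phosphorylates itself. In hypertrophy and heart failure it is known for its action on calcium cycling proteins and on class IIa histone deacetylases. The latter are repressors of MEF2 factors.

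METTL5 is a methyltransferase that places m6A on 18S rRNA. RNA sequencing covered 8 groups of 4 libraries. Hearts of 1-month-old C57BL/6 mice came from whole-body knockouts (Mettl5-KO) and control littermates (Ctrl). Hearts at 3 months of age came from Mettl5-cKO mice, in which Cre under the Myh6 promoter removes floxed exons 2 to 4 of Mettl5 in cardiomyocytes alone, and from Ctrl mice. Hearts 4 weeks after transverse aortic constriction (TAC), which loads the left ventricle with pressure, came from Mettl5-cKO and Ctrl mice, also labelled as 3 months old. The genotype field of the labels calls the knockouts of the last 2 experiments Mettl5-KO and their titles Mettl5-cKO, and no library is labelled as sham operated. Neonatal rat ventricular cardiomyocytes (NRVMs) of postnatal day 2, pre-plated to remove fibroblasts, carried an adenovirus with human METTL5 (AdMettl5) or with GFP (AdGFP), and all 8 libraries came from cells that received 20 μM phenylephrine (PE) for 24 h, an adrenergic agonist that makes these cells grow.

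Libraries held 19899033 to 21804907 estimated counts in the mouse and 14324700 to 18085339 in the rat. The targeted gene did not separate the mouse genotypes, since Mettl5 had log2 fold changes of 0.22 at 1 month, -0.18 at 3 months and -0.04 after TAC with adjusted p of 0.973, 0.884 and 0.874 in edgeR's quasi-likelihood test. It was higher in AdMettl5 NRVMs by 0.32 on the log2 scale (standard error (SE) 0.0723, adjusted p = 0.00295), although the virus carries the human gene. The whole-gene counts therefore do not show the deletion, and the groups rest here on the labels. The paper reports almost no reads over the floxed exons in Mettl5-cKO hearts, which counts per gene do not resolve. In the mouse Mettl5 also overlaps Ssb and Gm13625, whose reads may not be told apart from it. Summed levels of 8 cardiomyocyte markers lay between 21906 and 39844 CPM (counts scaled to a fixed library size) in hearts not operated and between 15857 and 18462 CPM in AdGFP NRVMs, where 7 fibroblast markers still summed to between 9410 and 9899 CPM. Library 4 of the Mettl5-cKO TAC group stood apart from the other 3, and leaving it out raised the genes called after TAC from 1074 higher and 997 lower to 1973 higher and 1926 lower. Library numbers here follow the labels at 1 month and the column names elsewhere and imply no order. Levels are CPM on library sizes scaled by the TMM method over all libraries of a species, and fold changes come from a fit of each table.

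Camkk2 and Camkk1 are the upstream kinases. Camkk2 (ENSMUSG00000029471) lies on the minus strand at chr5:122731170-122779409 of GRCm38 with 11 annotated transcripts and no overlapping gene. Camkk1 (ENSMUSG00000020785) lies on the plus strand at chr11:73019008-73042073 with 3 transcripts and no overlapping gene. Their promoters are shown because these genes head the cascade, and each runs from 250 bases before the RefSeq start to 50 bases after it on GRCm38.p6. The Camkk2 window is chr5:122779361-122779660 on the minus strand and the Camkk1 window is chr11:73018738-73019037 on the plus strand, and both are written 5′ to 3′ on the strand of the gene.
Camkk2: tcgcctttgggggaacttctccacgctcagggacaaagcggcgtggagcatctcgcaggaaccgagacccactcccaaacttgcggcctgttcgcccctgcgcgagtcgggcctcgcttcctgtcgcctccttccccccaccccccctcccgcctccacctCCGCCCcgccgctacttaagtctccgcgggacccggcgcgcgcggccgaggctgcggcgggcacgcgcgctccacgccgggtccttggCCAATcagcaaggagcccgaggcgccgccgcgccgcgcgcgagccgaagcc
Camkk1: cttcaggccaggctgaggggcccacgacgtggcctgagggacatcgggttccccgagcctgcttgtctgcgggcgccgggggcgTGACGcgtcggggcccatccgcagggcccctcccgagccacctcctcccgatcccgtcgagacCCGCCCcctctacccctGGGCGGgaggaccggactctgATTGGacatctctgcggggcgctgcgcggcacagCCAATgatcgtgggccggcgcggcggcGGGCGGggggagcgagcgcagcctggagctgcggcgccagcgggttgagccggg
Capitals mark matches to motifs searched on both strands. The GC box was read as GGGCGG and was held by 35.7% of 32851 promoter windows of the same length, and the CCAAT box, read by those letters, was held by 37.4%. The core of a cyclic AMP response element, read as TGACG, was held by 20.8%, the E-box (CACGTG) by 7.15%, the TATA box (TATAAA) by 13.6% and the MEF2 site by 3.69%. The Camkk2 window held 1 GC box and 1 CCAAT box, and the Camkk1 window held 3 GC boxes, 2 CCAAT boxes and 1 response element core. No matches overlapped, and neither window held an E-box, a TATA box or a MEF2 site. Both windows were rich in G and C, at 73.3% for Camkk2 and 75.3% for Camkk1 against a median of 52.7% over all windows. Of the 10 kinases, 6 had an entry in this table, and Pnck had none.

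Camkk2 was low in every Mettl5-KO library at 1 month. The 4 Ctrl libraries held 264, 187, 148 and 131 counts, or 11.0, 9.55, 9.47 and 7.27 CPM. The 4 Mettl5-KO libraries held 60, 49, 61 and 42 counts, or 2.89, 2.59, 2.87 and 2.19 CPM. The groups did not overlap, and the means were 9.31 ± 1.52 and 2.63 ± 0.324 CPM (SD, n = 4). The knockout mean was 0.284 of the control level by the fit, or -1.82 on the log2 scale. These values chose the gene and carry no test. Leaving out single libraries gave -1.92 to -1.72. Of the 44 cell type markers tested in 8 lists, 0 were called in this comparison by edgeR and 1 endothelial marker was lower in DESeq2. At an unadjusted p under 0.05 there were 6, of which 3 were endothelial, with summed endothelial levels of 700 to 829 CPM in Mettl5-KO against 773 to 964 CPM in Ctrl libraries. Their part in the low level of Camkk2 was not tested.

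The genes next to Camkk2 on chromosome 5 did not follow it. The nearest 2 tested genes on the lower side were P2rx4, 1.43 kb away, with a log2 fold change of -0.03 (SE 0.177), and P2rx7 with -0.09 (SE 0.147). On the other side were Anapc5, 8.05 kb away, with -0.13 (SE 0.137), and Rnf34 with 0.17 (SE 0.119). Their adjusted p lay between 0.973 and 0.994.

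The low level of Camkk2 did not recur with genotype at 3 months. The Ctrl libraries held 185, 65, 180 and 190 counts, or 8.32, 3.06, 8.22 and 8.41 CPM, and the Mettl5-cKO libraries held 217, 236, 203 and 207 counts, or 9.46, 10.6, 8.90 and 9.43 CPM. The knockout libraries lay above all control libraries, the opposite of the direction at 1 month. The log2 fold change was 0.46 (SE 0.264, 95% interval -0.13 to 1.05) and did not pass the threshold (adjusted p = 0.845), and the exact two-sided permutation p of 0.0286 is the smallest that 4 against 4 libraries can give. Groups without overlap occurred for 4.23% of the genes tested at 3 months, and Camkk2 was the only 1 of the 9 kinases tested. Without Ctrl library 2, at 65 counts, the log2 fold change was 0.21.

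After TAC, 3 of the 4 knockout libraries held more Camkk2 than any control. Ctrl libraries held 155, 175, 187 and 162 counts, or 7.42, 8.21, 9.43 and 7.60 CPM. Mettl5-cKO libraries held 282, 261, 300 and 57 counts, or 12.1, 11.6, 11.8 and 2.76 CPM. The first 3 exceeded every control and library 4 lay below every control, at the level of the 1-month knockouts. The log2 fold change was 0.22 (SE 0.359, 95% interval -0.58 to 1.03, adjusted p = 0.721). Without library 4, which also stood apart across all genes, it was 0.53 and passed the threshold (adjusted p = 0.00667), so this library decides the call. The Mettl5-cKO effect after TAC differed from that at 3 months by -0.22 on the log2 scale (95% interval -1.26 to 0.83, adjusted p = 0.917 for the interaction). Without library 4 and the low Ctrl library at 3 months the difference was 0.33. These libraries were left out for their Camkk2 counts after seeing the data, so that value is a description with no test.

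In NRVMs Camkk2 was even between the groups. AdGFP libraries held 117, 100, 111 and 135 counts and AdMettl5 libraries 102, 109, 111 and 121, with means of 6.82 ± 0.781 and 7.29 ± 0.332 CPM (SD, n = 4). The log2 fold change of 0.10 (SE 0.0998) had a 95% interval of -0.12 to 0.31 (adjusted p = 0.442), and the ranges overlapped. Camkk2 was also not called between Ctrl hearts after TAC and unstressed Ctrl hearts of 3 months (log2 fold change 0.22, 95% interval -0.53 to 0.97, adjusted p = 0.772). These groups carry the same age in the labels, differ in operation and experiment, and share the 3-month controls with the comparison above. Among the 24 mouse libraries, Camkk2 thus held 42 to 65 counts in the 4 Mettl5-KO libraries at 1 month, in Ctrl library 2 at 3 months and in Mettl5-cKO TAC library 4, and 131 to 300 counts in all others.

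**Figure D1:**
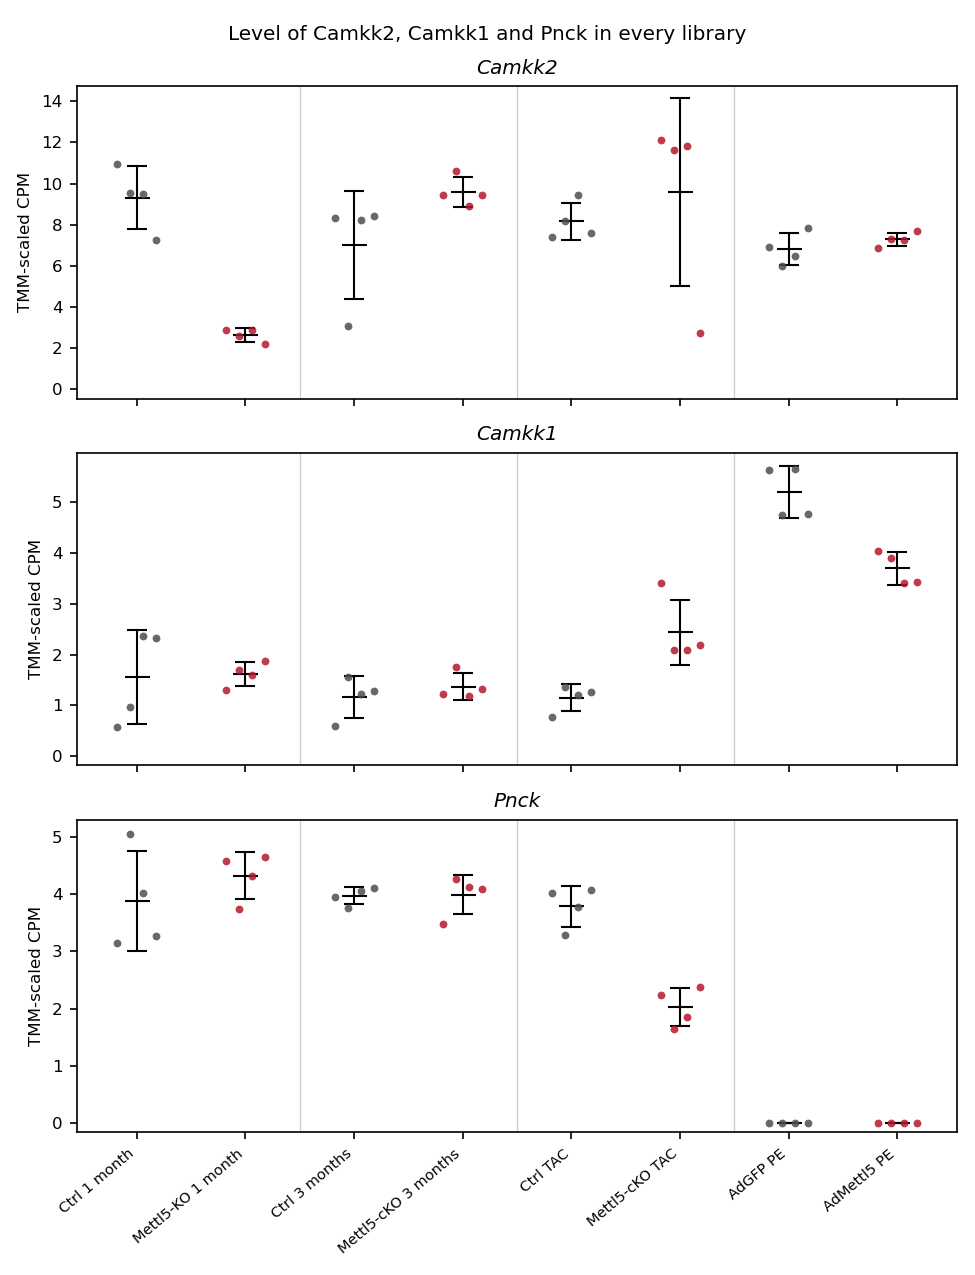
TMM-scaled CPM (linear axes) of Camkk2, Camkk1 and Pnck in every library, with controls in grey, Mettl5 groups in red, and the group mean ± SD in black (n = 4). Camkk2 sits between 2.19 and 2.89 CPM in the 1-month knockouts and at 3.06 and 2.76 CPM in single libraries of 2 other groups, Camkk1 has its highest heart group mean (2.44 CPM) in the Mettl5-cKO TAC group, and Pnck lies at 1.65 to 2.37 CPM in that group, below all other hearts, and at 0 in the rat.

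Camkk1 was higher in Mettl5-cKO hearts after TAC and lower in NRVMs with AdMettl5. After TAC the Ctrl libraries held 16, 29, 24 and 27 counts, or 0.766, 1.36, 1.21 and 1.27 CPM, and the Mettl5-cKO libraries held 79, 47, 53 and 45 counts, or 3.40, 2.09, 2.09 and 2.18 CPM. All knockout libraries lay above all controls, with library 1 highest. The log2 fold change was 1.07 (SE 0.230, 95% interval 0.55 to 1.58, adjusted p = 0.0207), a 2.09-fold higher level. Camkk1 was the only 1 of the 8 kinases tested there, Pnck left aside, that passed the threshold, beside 6.57% of all 16340 genes called higher and 6.1% called lower. Groups without overlap made up 18.7% of all genes. The call was lost without Ctrl TAC library 3 or library 4, with adjusted p up to 0.0599 over the libraries left out, and the lowest log2 fold change was 0.87, without Mettl5-cKO library 1.

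In NRVMs Camkk1 held 95, 79, 97 and 82 counts with AdGFP and 60, 58, 52 and 54 with AdMettl5. All AdMettl5 libraries lay below all AdGFP libraries, at 3.69 ± 0.322 against 5.20 ± 0.512 CPM (SD, n = 4), and Camkk1 fell by 0.49 on the log2 scale (SE 0.116, adjusted p = 0.00353). At 1 month its log2 fold change was 0.07 (95% interval -0.85 to 1.00, adjusted p = 0.994) and at 3 months 0.24 (-0.39 to 0.87, adjusted p = 0.977). The 1-month Ctrl libraries ranged from 14 to 42 counts and spanned all Mettl5-KO libraries, at 27 to 36. The effect after TAC exceeded that at 3 months by 0.84 (95% interval 0.05 to 1.64) without passing the threshold over all genes (adjusted p = 0.394), so the 2 effects were not shown to differ. Between Ctrl hearts after TAC and at 3 months Camkk1 had a log2 fold change of -0.02 (95% interval -0.60 to 0.57, adjusted p = 0.981).

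Some cell type markers were also called in both comparisons in which Camkk1 was called. After TAC 6 of 7 fibroblast markers were higher in Mettl5-cKO hearts, with summed levels of 744 to 2369 CPM against 481 to 603 CPM. Endothelial markers were lower for 4 of 6, with sums of 405 to 517 CPM against 553 to 662 CPM, and 2 of 6 macrophage markers were higher (145 to 193 against 113 to 140 CPM). Cardiomyocyte markers were lower for 2 of 8, with sums of 23992 to 30597 against 33482 to 36963 CPM, and none of the markers in these 4 lists was at 0. With single libraries left out, the markers called in these directions numbered 1 to 7 for fibroblasts, 1 to 5 for endothelial cells, 1 to 3 for macrophages and 0 to 5 for cardiomyocytes, with the lowest count of each list reached without Ctrl TAC library 4 and the highest without Mettl5-cKO TAC library 4. Of the other marker lists after TAC, atrial cardiomyocytes had 1 of 2 tested higher, neurons and Schwann cells 1 of 5 higher and 1 lower, and smooth muscle cells (6 tested) and T cells (1 tested) 0. Over all genes 6.57% were called higher and 6.1% lower after TAC. In NRVMs 7 of 7 cardiomyocyte markers tested were lower with AdMettl5 (sums of 7107 to 7820 against 15857 to 18462 CPM), as were 5 of 6 fibroblast markers (7543 to 8310 against 9410 to 9899 CPM), and Cd163, a macrophage marker, was at 0 in all NRVM libraries and Emcn, an endothelial marker, in those with AdMettl5. There endothelial markers had 1 of 4 higher, macrophages 2 of 4 lower, T cells 1 of 1 higher, smooth muscle cells 2 of 6 higher and 1 lower, neurons and Schwann cells 2 of 5 higher and 2 lower, and atrial cardiomyocytes 4 of 4 lower. Over all genes in NRVMs 27.1% were called higher and 25.7% lower, so 1 or 2 genes in lists this short are not a result about a cell type. At 3 months 0 of 41 markers were called by edgeR, 18 had an unadjusted p under 0.05, of which 6 were of fibroblasts and 5 of macrophages, and DESeq2 called 3 higher and 1 lower. The part of these markers in the change of Camkk1 and of the kinases below was not tested, and in whole tissue fewer cells of a type and less RNA per cell cannot be told apart.

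CaMKI and CaMKIV are the kinases that CAMKK1 and CAMKK2 switch on. Pnck, also known as CaMKI beta, lies on the minus strand at chrX:73655994-73660117 (ENSMUSG00000002012) with no overlapping gene. After TAC it held 84, 70, 75 and 87 counts in Ctrl libraries (4.02, 3.28, 3.78 and 4.08 CPM) and 52, 37, 47 and 49 counts in Mettl5-cKO libraries (2.24, 1.65, 1.86 and 2.37 CPM). The groups did not overlap, and the log2 fold change was -0.92, or 0.529 of the control level. These values chose the gene and are not tested, and leaving out single libraries moved them from -0.99 to -0.83, so library 4, at 49 counts, did not stand apart for this gene.

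The fall of Pnck was not seen in the other heart tables. At 1 month Ctrl libraries held 76, 99, 63 and 59 counts and Mettl5-KO libraries 95, 71, 92 and 89, with a log2 fold change of 0.16 (SE 0.176, 95% interval -0.23 to 0.56, adjusted p = 0.973). At 3 months Ctrl libraries held 88, 80, 89 and 93 counts and Mettl5-cKO libraries 80, 95, 94 and 90, with a log2 fold change of 0.01 (SE 0.115, 95% interval -0.25 to 0.27, adjusted p = 0.999). The ranges overlapped both times. The intervals are not set against the fall after TAC, since that value chose the gene. Ctrl hearts after TAC held Pnck at 3.79 ± 0.363 CPM against 3.98 ± 0.153 CPM in unstressed Ctrl hearts (SD, n = 4; log2 fold change -0.07, 95% interval -0.33 to 0.18, adjusted p = 0.781). These hearts belong to separate experiments without a labelled sham group, so operation and experiment cannot be told apart. The Mettl5-cKO effect after TAC lay 0.91 below that at 3 months on the log2 scale, a difference that rests on the values that chose the gene and was given no test. In the rat all 8 libraries held 0 counts of Pnck, which allows up to 3 counts per library, so recurrence in NRVMs could not be read.

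Neighbours of Pnck on the X chromosome did not fall with it after TAC. On the lower side were Haus7 with a log2 fold change of 0.38 (adjusted p = 0.0841) and Bgn, the matrix proteoglycan biglycan, with 1.70 (adjusted p = 0.0117). On the upper side were the creatine transporter gene Slc6a8, 13.0 kb away, with 0.49 (adjusted p = 0.00761), and Bcap31 with 0.05 (adjusted p = 0.708).

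Camk1, which encodes CaMKI alpha, was the steadiest of these substrates in hearts and was lower with AdMettl5. Its group means ran from 35.8 to 44.4 CPM in the 6 groups of hearts, and its log2 fold changes were 0.01 at 1 month, 0.17 at 3 months and 0.07 after TAC with adjusted p of 1.00, 0.837 and 0.605. In NRVMs it held 839, 785, 765 and 798 counts with AdGFP and 631, 641, 610 and 634 with AdMettl5. These ranges did not overlap, and the level fell from 47.0 ± 2.13 to 41.5 ± 1.53 CPM (SD, n = 4; log2 fold change -0.18, SE 0.0518, adjusted p = 0.0112). In the mouse Camk1 overlaps Ogg1 on chromosome 6, and the strandedness of the libraries is not given in the sources used here. Reads of the 2 genes may therefore not be told apart in hearts, and overlap in the rat was not looked up.

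Camk1d, which encodes CaMKI delta, was higher with AdMettl5 and lay close to the threshold after TAC. NRVM libraries held 75, 79, 100 and 94 counts with AdGFP and 128, 138, 121 and 130 with AdMettl5, without overlap, for a log2 fold change of 0.73 (SE 0.106, 95% interval 0.50 to 0.96, adjusted p = 1.1e-04). After TAC Ctrl libraries held 51, 44, 51 and 44 counts and Mettl5-cKO libraries 70, 60, 108 and 63. All knockouts lay above all controls, and groups without overlap made up 18.7% of all genes. The log2 fold change of 0.50 (95% interval 0.11 to 0.88) did not pass the threshold (adjusted p = 0.0833). At 1 and 3 months its log2 fold changes were 0.06 and 0.07 (adjusted p = 0.993 and 0.999). Camk4, the kinase that phosphorylates CREB in neurons and T cells, held 0 to 5 counts in the 24 heart libraries and 0 to 9 counts in the 8 NRVM libraries, with 4 to 9 counts under AdMettl5 and 0 to 3 under AdGFP. It was at or near the floor of 3 counts and was not tested.

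CaMKII is built from subunits of 4 genes, of which the delta gene is the main cardiac form. Camk2d held 63.6 to 101 CPM in single heart libraries and was even between genotypes, with log2 fold changes of 0.24 at 1 month, 0.06 at 3 months and 0.14 after TAC (adjusted p = 0.973, 0.999 and 0.311). In NRVMs it held 2406, 2529, 2649 and 2688 counts with AdGFP and 3116, 3122, 3094 and 3220 with AdMettl5. All AdMettl5 libraries were higher, and the level rose from 151 ± 6.06 to 207 ± 3.52 CPM (SD, n = 4; log2 fold change 0.45, SE 0.0427, adjusted p = 4.0e-06). In the mouse Camk2d overlaps 8 annotated genes, among them Gm15551, whose reads may not be told apart from it. Overlap in the rat was not looked up.

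Camk2b and Camk2g, the beta and gamma subunits, moved in opposite directions in NRVMs. Camk2b held 165, 162, 131 and 158 counts with AdGFP and 168, 179, 195 and 205 with AdMettl5, so that the raw counts nearly met while the scaled levels did not (7.64 to 9.78 against 11.3 to 13.0 CPM), for a log2 fold change of 0.44 (SE 0.0932, adjusted p = 0.00185). Camk2g fell from 38.7 ± 0.789 to 35.0 ± 1.13 CPM (SD, n = 4; log2 fold change -0.14, SE 0.0480, adjusted p = 0.0234). In hearts neither gene was called. Camk2b had the lowest unadjusted p of the 8 kinases tested beside Camkk2 at 1 month, with 227, 200, 140 and 149 counts in Ctrl and 151, 150, 151 and 141 in Mettl5-KO libraries. Its scaled levels did not overlap (8.27 to 10.2 against 7.09 to 7.92 CPM), as held for 3.04% of all genes, and the log2 fold change of -0.31 (SE 0.104) had an unadjusted p of 0.0139 and an adjusted p of 0.973. After TAC its log2 fold change was -0.02 (95% interval -0.77 to 0.73, adjusted p = 0.982), with Ctrl library 4 at 54 counts and the other 3 at 168 to 202.

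Camk2a, the subunit best known from the brain, was uneven between hearts of most groups. At 1 month it held 1038, 317, 592 and 632 counts in Ctrl libraries and 935, 822, 56 and 681 in Mettl5-KO libraries. Library 3 of the knockouts stood far below the others, and the groups overlapped. At 3 months the Ctrl libraries held 984, 55, 832 and 936 counts and the Mettl5-cKO libraries 976, 979, 896 and 791. Here Ctrl library 2 was low, the same library that was low in Camkk2. After TAC the Ctrl libraries held 262, 37, 513 and 576 counts and the Mettl5-cKO libraries 31, 374, 48 and 186.

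The coefficient of variation of Camk2a within the heart groups ran from 8.75% in Mettl5-cKO hearts at 3 months to 99.5% in Mettl5-cKO hearts after TAC. That of Camk2g ran from 3.83% to 12.7%. Camkk1 varied more than Camk2a in Ctrl hearts at 1 month (59.1% against 35.5%), as did Camk2b in Mettl5-cKO hearts at 3 months (24.8%). The following values are of Camk2a. Its log2 fold changes had wide intervals, -1.51 to 1.38 at 1 month, -0.93 to 1.66 at 3 months and -3.14 to 0.67 after TAC, and none was called (adjusted p = 0.998, 0.999 and 0.357). A change of Camk2a by genotype smaller than these intervals was not detectable. In the 8 NRVM libraries it was even, at 46 to 77 counts and a log2 fold change of 0.18 (95% interval -0.17 to 0.52, adjusted p = 0.371).

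**Figure D2:**
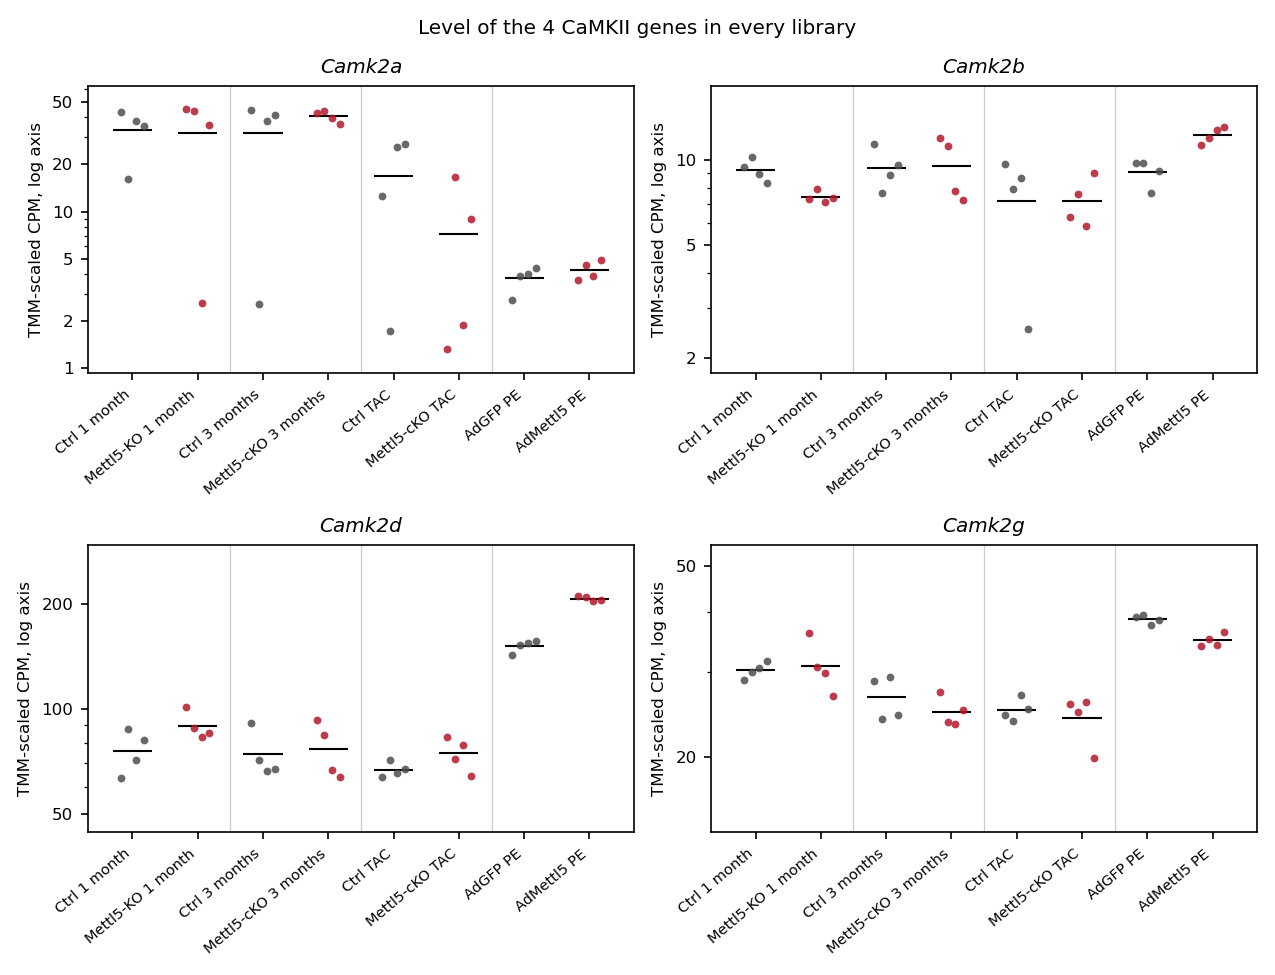
TMM-scaled CPM on log axes of the 4 CaMKII genes in every library, with controls in grey, Mettl5 groups in red and the group mean as a black line (n = 4). Single hearts of Camk2a drop to between 1.33 and 2.63 CPM in 4 of the 6 heart groups where Camk2g keeps within 19.9 to 36.2 CPM, and in NRVMs Camk2b and Camk2d are higher and Camk2g lower with AdMettl5.

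Per length, Camk1 had the highest level of these mRNAs on average over the groups of mouse hearts and Camk4 the lowest. With counts divided by the union of annotated exons, the means of the 6 groups of hearts averaged 6.66 CPM per kb for Camk1, 4.22 for Camk2g, 3.59 for Camk2a, 3.40 for Camk2d and 1.86 for Pnck. Lower still were Camk2b at 0.911, Camkk2 at 0.707, Camkk1 at 0.416, Camk1d at 0.350 and Camk4 at 0.00900 CPM per kb. Camkk2 exceeded Camkk1 in this average, but its lowest group mean of 0.241, in Mettl5-KO hearts at 1 month, lay below every Camkk1 group mean (0.309 to 0.655). By longest transcript that Camkk2 mean was 0.542, above the 0.435 of Camkk1 in the same group, so their order there depends on the length used. Neighbours in this order overlapped in their group means except Camk1 and Camk2g, Camk2d and Pnck, and Camk1d and Camk4. The place of Camk2d depends on the length too, since its exons span 22493 bases in union and its longest transcript 5524 bases. By longest transcript Camk2d came next after Camk1 on average, at 13.8 against 16.6 CPM per kb. In Mettl5-KO hearts at 1 month it exceeded Camk1 by that length, at 16.2 against 15.9 CPM per kb. The share of Camk2a in the per-length sum of the 4 CaMKII genes ran from 2.08% in Mettl5-cKO TAC library 1 to 41.3% in Ctrl library 4 at 3 months by union of exons.

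As a whole, few of the kinases were called by genotype in hearts, and most were called with AdMettl5 in NRVMs. The share called over all genes was also higher in NRVMs. At 1 month, Camkk2 left aside, 0 of the 8 kinases tested were called by edgeR, 1 (Camk2b) at an unadjusted p under 0.05, and 0 by DESeq2, beside 0.00612% of the 16329 genes tested. That share is 1 gene, and Camkk2 was not left out of it. At 3 months 0 of 9 were called by either tool and 0 at an unadjusted p under 0.05, beside 0.0732% of all genes called. Between Ctrl hearts after TAC and at 3 months 0 of 9 were called by either tool, 1 (Camk1) at an unadjusted p under 0.05, beside 0.34% of 17070 genes called higher and 0.176% lower. For the interaction, Pnck left aside, 0 of 8 kinases were called by either tool, 1 (Camkk1) at an unadjusted p under 0.05, beside 0.00586% of all genes. The kinases tested had a median log2 fold change of 0.03 in 1-month hearts, 0.07 in 3-month hearts, 0.07 in hearts with TAC and 0.14 in NRVMs, and that of all genes was within 0.01 of 0 in each.

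In NRVMs 3 of the 8 kinases tested were higher (Camk1d, Camk2b and Camk2d) and 3 lower (Camkk1, Camk1 and Camk2g), and these 6 did not overlap between groups. Of all 15041 genes tested there, 27.1% were called higher, 25.7% lower and 48.4% did not overlap, so the number of kinases called is not a result about the kinases as a group. Scaling by library size alone, which moved the median of all genes to 0.13 on the log2 scale and raised the share of higher among called genes from 51.4% to 71.5%, ended the calls of Camk1 (-0.04, adjusted p = 0.467) and Camk2g (-0.01, adjusted p = 0.905) and kept the other 4. Relative to the median gene both still lay lower. After TAC the same scaling moved that median to 0.14 and raised the share of higher calls from 51.9% to 79.7%, and Camkk1 remained called.

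**Figure D3:**
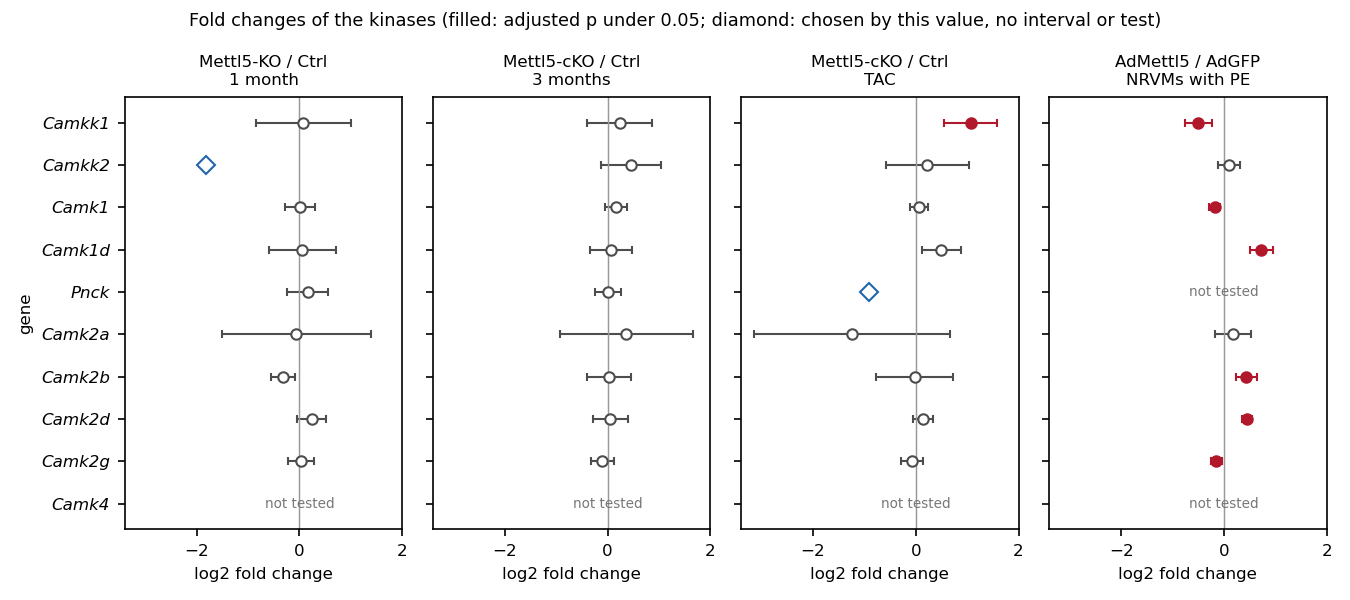
Log2 fold changes of the 10 kinases in the 4 comparisons, with 95% intervals from edgeR's quasi-likelihood fit of each table (4 against 4 libraries). Filled red points had an adjusted p under 0.05, open grey points did not, and diamonds mark Camkk2 at 1 month (-1.82) and Pnck after TAC (-0.92), by which the genes were chosen. Camkk1 at 1.07 is the filled point among the hearts and 6 kinases are filled in NRVMs.

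Genes linked to the kinases were read in 6 lists, and none of their 55 members tested at 1 month, 53 at 3 months and 53 between Ctrl hearts was called in edgeR. At an unadjusted p under 0.05 these lists held 0, 4 and 14 genes. DESeq2 called 0, 0 and 2. AMPK, a substrate of CAMKK2, and LKB1, the other kinase acting on it, made up 12 of the genes. None of the 12 was called at 1 month, beside 0.00612% (1 gene) of all 16329 genes tested, and the median log2 fold change of the list was 0.08. These are mRNA levels, so the phosphorylation of AMPK by CAMKK2 was not read.

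After TAC 2 of the 12 AMPK and LKB1 genes were higher in Mettl5-cKO hearts and 0 lower, beside 6.57% and 6.1% of all genes. Prkab2, a beta subunit of AMPK, rose from 25.6 ± 1.10 to 65.1 ± 23.2 CPM (SD, n = 4; log2 fold change 1.33, SE 0.242, adjusted p = 0.0137). Prkag2, the gamma subunit whose mutations cause a glycogen storage cardiomyopathy, rose from 15.4 ± 0.968 to 25.6 ± 4.90 CPM (log2 fold change 0.72, SE 0.132, adjusted p = 0.0139). In both, all knockout libraries lay above all controls, and groups without overlap made up 18.7% of all genes. Among 4 inhibitors and phosphatases of the kinases Ppm1e, a phosphatase that removes the activating phosphate of CaMK and AMPK, was higher (9.29 ± 1.88 to 26.3 ± 9.36 CPM, log2 fold change 1.48, adjusted p = 0.0130). These 3 genes were not called in the same direction in NRVMs, where Prkag2 and Prkab2 were lower.

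Other kinases that calmodulin controls had 1 of 12 higher and 2 lower after TAC. Over all genes 6.57% were higher and 6.1% lower, so counts of 1 or 2 in lists of 12 or 13 genes lie near the background. Phkg1, the catalytic subunit of muscle phosphorylase kinase, fell from 10.3 ± 2.39 to 3.51 ± 1.23 CPM (log2 fold change -1.58, SE 0.243, adjusted p = 0.00895), and Mylk, the smooth muscle myosin light chain kinase, fell by 0.47 (adjusted p = 0.0446) while Dapk3 rose by 0.30 (adjusted p = 0.0406). Among 13 nuclear targets only Creb1 was called, and it fell by 0.33 (SE 0.0806, adjusted p = 0.0307). Among 7 calcium cycling targets of CaMKII only Hrc, which encodes a histidine-rich calcium-binding protein of the sarcoplasmic reticulum, was called, and it fell from 491 ± 28.4 to 265 ± 84.4 CPM (log2 fold change -0.90, SE 0.186, adjusted p = 0.0184). Among the 5 calmodulin genes and buffers tested 0 were called (smallest adjusted p = 0.0856), with 1 lower in DESeq2. The medians of these lists were 0.07, -0.13, -0.34 and -0.13 on the log2 scale. Single libraries moved these counts. Nuclear targets had 0 called without any filter and in 6 of the 8 fits that left out a library, the exceptions being Ctrl TAC library 1 (1 lower) and Mettl5-cKO TAC library 4 (2 lower), and with library size alone 2 were higher and 0 lower. The other kinases had 0 higher in 6 of those 8 fits, against 2 when Mettl5-cKO TAC library 4 was left out and 1 when Ctrl TAC library 3 was. Calcium cycling targets had 3 lower without Mettl5-cKO TAC library 4 and 0 without Ctrl TAC library 2, Ctrl TAC library 4 or Mettl5-cKO TAC library 2.

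With AdMettl5 the calcium cycling genes fell together in NRVMs, 6 of 7 being lower and 0 higher, with a list median of -0.71 against 0.00 for all genes. Pln, the brake on the calcium pump, fell from 2263 ± 88.6 to 1161 ± 65.1 CPM (SD, n = 4; log2 fold change -0.96, SE 0.0548, adjusted p = 7.0e-08). Atp2a2, the calcium pump itself, fell by 0.71 (adjusted p = 3.9e-06) and the release channel Ryr2 by 1.00 (adjusted p = 3.2e-05). Pln and Ryr2 are also on the cardiomyocyte marker list, all of whose members tested were lower, and the part of cell makeup was not tested.

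The remaining lists are read beside 27.1% of all genes called higher and 25.7% lower in NRVMs. Nuclear targets had 4 of 13 higher and 4 lower, near that background, with the repressor Hdac9 higher by 1.16 (adjusted p = 2.8e-07), Mef2c higher by 0.60 (adjusted p = 3.4e-07), Srf lower at -0.46 (adjusted p = 2.5e-06) and Mef2a lower at -0.40 (adjusted p = 4.7e-05). The AMPK and LKB1 list had 4 of 11 higher and 3 lower, led by Prkaa1, the alpha catalytic subunit that rose by 0.70 (adjusted p = 1.7e-07), Prkag2 at -0.75 (adjusted p = 3.0e-07), Cab39 at 0.34 (adjusted p = 2.1e-05) and Stradb at 0.45 (adjusted p = 1.9e-04). Other calmodulin-linked kinases had 1 of 11 higher and 5 lower, among them the cardiac myosin light chain kinase Mylk3, which fell from 270 ± 21.4 to 128 ± 9.01 CPM (log2 fold change -1.07, adjusted p = 1.3e-07). Of 4 calmodulin genes and buffers Pcp4l1 was higher at 0.68 (adjusted p = 5.9e-07) and Nrgn lower at -0.82 (adjusted p = 0.0104), and of 4 inhibitors and phosphatases the CaMKII inhibitor Camk2n2 was higher at 0.72 (adjusted p = 0.0212) in edgeR and not in DESeq2. Under scaling by library size alone the counts of higher against lower became 5 and 2 for nuclear targets, 6 and 2 for AMPK and LKB1, 3 and 2 for the other kinases, 3 and 1 for calmodulin and its buffers, and 2 and 0 for inhibitors and phosphatases, while calcium cycling genes had 0 and 5.

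**Figure D4:**
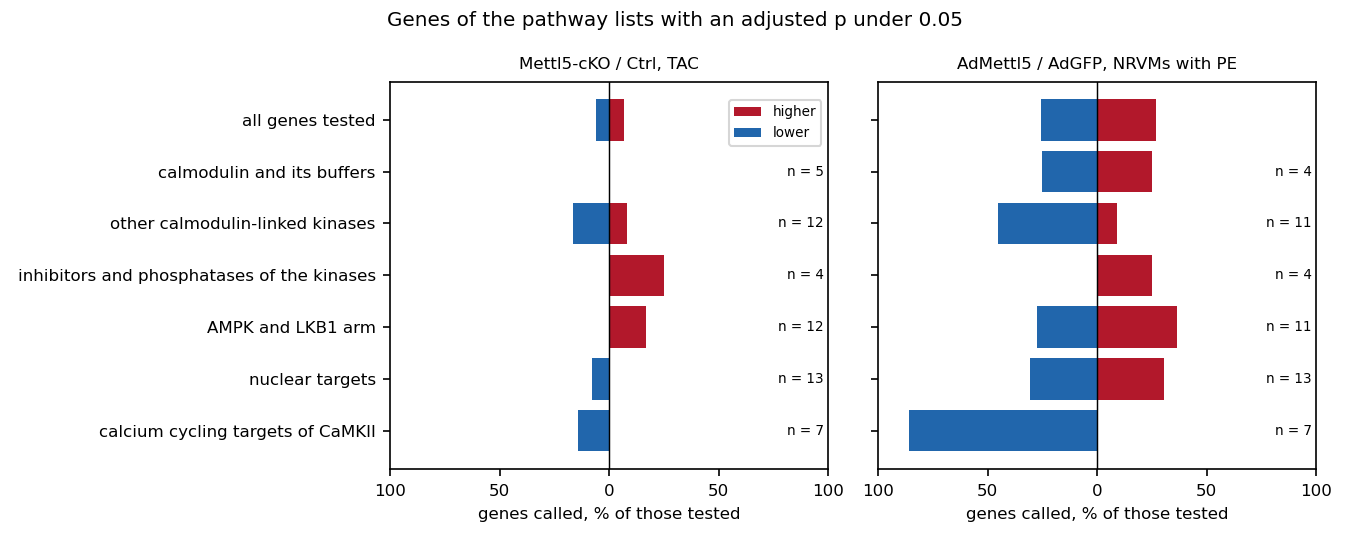
Share of the tested genes of each pathway list called higher (red, to the right) or lower (blue, to the left) at an adjusted p under 0.05, after TAC and in NRVMs, with the number tested (n) and the same share over all genes on top. The calcium cycling list in NRVMs, with 6 of 7 genes lower, has the longest bar, and after TAC no list has more than 3 genes called.

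The genes whose levels followed Camkk2 most closely over the 24 mouse libraries, among 15542 compared, were Pik3cb, a catalytic subunit of PI3-kinase (Pearson's r of log2 CPM 0.75), the unnamed locus Gm39469 (0.74) and Brap (0.72). For Pnck they were the receptor gene Gfra4 (0.88), the tubulin glutamylase subunit gene Ttll1 (0.87) and Crip2 (0.87). Between Camkk2 and the other 8 kinases compared r lay between -0.29 and 0.14, and between Camkk2 and Pnck it was -0.29. These are descriptions over libraries that share their groups and depth, and they include the contrasts that chose both genes.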

How the data were processed

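RNA was sequenced in 24 libraries of mouse hearts and 8 of NRVMs, in 8 groups of 4 taken from the labels. Per the methods and the submitters' processing notes, the authors aligned the reads with HISAT2 2.0.4 to GRCm38 or Rnor_6.0 and deposited estimated counts of each gene made with StringTie 2.1.4, as whole numbers without scaling between libraries. StringTie derives a gene's count from the transcripts to which it assigns reads, so the value depends on the transcript models as well as on the reads. The strandedness and annotation release are not given in the sources used here.

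Genes of each table were filtered with filterByExpr (at least 10 counts, 15 in total), scaled by TMM and fitted with glmQLFit and glmQLFTest of edgeR 4.0.16 in R 4.3.3. P-values were adjusted by Benjamini-Hochberg over all genes tested, and genes with an adjusted p under 0.05 were called. Control hearts after TAC and at 3 months, and the interaction of genotype with operation, were read from 1 fit of those 16 libraries. The hearts come from separate experiments and none is labelled as sham operated, so operation and experiment cannot be told apart in these contrasts. The standard error is the log2 fold change over the root of the F statistic. Exact permutation tests were two-sided over 70 labelings of mean log2 CPM (prior count 2). The labels number the libraries of a group as replicates without saying that they came from separate animals or cultures, so p-values measure the spread between these libraries, which may be technical. No libraries of a group were duplicates, the lowest chi-square between 2 of them being 2.16 times its degrees of freedom.

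The kinases, the 6 pathway lists, the 8 marker lists and the tests were chosen with earlier results of these data known. The text names all kinases, list genes with an adjusted p under 0.05 (at most the 4 smallest per list and comparison), the 3 genes most correlated with Camkk2 and Pnck, their nearest tested neighbours, and Mettl5. A list gene that this rule names is not reported here. Symbols on more than 1 row of the rat table were left out of the lists. Gene positions and lengths come from GENCODE M21 (55227 of 55487 mouse IDs matched) and promoters from RefSeq, and rat positions were not used. Replicate numbers at 1 month did not pair the samples, since deviations of same-numbered libraries correlated at 0.24, 0.12, -0.11 and 0.08. The pipeline was tested on simulated data. Alternatives were DESeq2 1.42.0, its size factors, library size alone, other filters, a minimum absolute log2 fold change of 1, the replicate number as a block, all mouse libraries in 1 fit, and leaving out each library. Libraries with low Camkk2 were left out together as an alternative added after seeing the data, as was the length of the longest transcript.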

Additional observations from a re-analysis of the deposited data

Results flagged for a closer look

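In 73 groups of 4 libraries, 5 held a library whose gap to the nearest of the others exceeded Dixon's 95% critical value, where chance gives about 1 group in 20. Camkk2 was low in Ctrl library 2 at 3 months, at 3.062 CPM against 8.22 to 8.408 CPM in the other 3. Camkk2 was low again in Mettl5-cKO TAC library 4, at 2.76 CPM against 11.61 to 12.13 CPM, and this library also stood apart across all genes. Camk2a was low in the same Ctrl library 2 at 3 months, at 2.591 CPM against 38 to 44.25 CPM. Camkk1 was high in Mettl5-cKO TAC library 1, at 3.399 CPM against 2.091 to 2.179 CPM. Camk4 had 0.222 CPM, or 4 counts, in Ctrl library 4 at 1 month and 0 counts in the other 3.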

How the results depend on the processing

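Of 601 alternative values of single kinases, 552 kept their direction and their side of the threshold. In NRVMs 6 kinases were called, 0 with a minimum absolute log2 fold change of 1 in addition, 4 with library size alone, and 5 to 6 with single libraries left out, where only the call of Camk2g was lost. After TAC 1 kinase was called under every other setting, and 0 to 2 with single libraries left out, with 0 without Ctrl TAC library 3 or library 4 and 2 without Mettl5-cKO TAC library 4, when Camkk2 was added. At 1 month, at 3 months, between Ctrl hearts and for the interaction 0 remained called under every alternative run. No paired analysis was possible in the other tables because the columns carry no shared replicate numbers. In the 1-month table, Camkk2 left aside, 0 kinases were called with a block on the replicate number.

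Directions turned for values that did not pass the threshold. After TAC Camk2g became 0.088 and Camk2b 0.12 with library size alone, and Camk2b 0.0017 in DESeq2. Without both libraries of low Camkk2, the Ctrl comparison gave -0.026 for Camkk2 and 0.16 for Camkk1, and the interaction of Camkk2 was 0.33. With single libraries left out, log2 fold changes at 1 month ran from -0.29 to 0.32 for Camk2a, -0.10 to 0.11 for Camk1, -0.16 to 0.21 for Camk1d, -0.060 to 0.098 for Camk2g and -0.21 to 0.35 for Camkk1. At 3 months they ran from -0.051 to 0.17 for Camk2d, -0.021 to 0.57 for Camk2a, -0.032 to 0.064 for Pnck, -0.0079 to 0.20 for Camk1d and -0.10 to 0.14 for Camk2b. After TAC they ran from -0.099 to 0.019 for Camk2g and -0.29 to 0.17 for Camk2b. Between Ctrl hearts they ran from -0.029 to 0.32 for Camkk2 and -0.24 to 0.15 for Camkk1, and for the interaction of Camkk2 from -0.34 to 0.071. The cause was not tested. With 4 libraries a group, the standard error of the median gene on the log2 scale ran from 0.0807 in NRVMs to 0.175 in 1-month hearts, while that of Camkk1 was 0.413 in 1-month hearts, which limits what genes of low count can show.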
